A study of Mus musculus with 12 samples.

Results

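The cytosolic ribosomal protein genes were taken as the genes with a protein-coding transcript whose symbol begins with Rpl or Rps and a digit, together with Rplp0, Rplp1, Rplp2 and Rpsa. Symbols that contain -ps, a form used for pseudogenes, and the ribosomal S6 kinases, whose symbols begin with Rps6k, were left out. The rule found 86 genes among 21918 protein-coding genes that had both a position in the annotation and a level in the RNA tables. By their symbols, 52 belonged to the large subunit (Rpl) and 34 to the small subunit (Rps). Of the 86 genes, 9 were paralogs or genes that share only the name, such as Rps19bp1, which encodes a protein that binds RPS19 and is not itself a ribosomal protein, and 77 remained without them. The genes lay on 19 chromosomes. They were short, with a median length of 3328 bp against 17420 bp for all protein-coding genes.

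The study profiled mouse embryonic stem cells (mESCs, line E14) and NIH3T3 cells, an immortalised mouse embryonic fibroblast line. Each line had 1 RNA-seq library, and the 7 peak lists each came from 1 chromatin immunoprecipitation (ChIP-seq) library. Ctr9 was pulled down with an anti-GFP antibody from knock-in cells of both lines, in which GFP was fused to the C terminus of the endogenous protein with CRISPR/Cas9; H3K27ac was profiled in both lines. NELFA carrying a LAP tag with GFP (NELFA-GFP) and RNA polymerase II (RNAPII) phosphorylated at serine 5 (Ser5p) or serine 2 (Ser2p) of its C-terminal repeats were profiled in mESCs only, and the Ser5p library was made from the NELFA-tagged cells. Both lines were grown in the same GMEM-based medium with serum and LIF, with no treatment, so the fibroblasts were also exposed to LIF. The tagged Ctr9 lines were pools of sorted GFP-positive cells rather than single clones. Since every group had 1 library, the differences below compare libraries, no test was possible and no p-value is given. The labels were checked against marker genes: all 8 mESC markers, Pou5f1 and Nanog among them, were lower in NIH3T3 cells by 2-fold or more, and all 8 fibroblast markers, Col1a1 and S100a4 among them, were higher. Pou5f1 stood at 1402 TPM, a transcript level corrected for length, in mESCs and was listed at 0 in NIH3T3 cells. Postn, a fibroblast marker, reached only 14.8 TPM in NIH3T3 cells.

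Ribosomal proteins coat the ribosomal RNA of both ribosomal subunits, and each ribosome carries roughly a single copy of most of them, so a growing cell needs them in matched amounts. Their mRNAs are among the most abundant of any cell and typically begin with a 5′ terminal oligopyrimidine tract (TOP), an uninterrupted run of C and T letters at the transcription start through which mTOR signalling controls their translation. Ctr9 is a core subunit of the Paf1 complex, which travels with elongating RNAPII. NELFA is a subunit of NELF, which holds RNAPII paused just downstream of the start. Ser5p marks RNAPII early in transcription, Ser2p marks RNAPII late in the gene and past its end, and H3K27ac marks active promoters and enhancers.

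Promoter sequences of 66 of the 86 genes were found in the RefSeq promoter table of GRCm38.p6, the same assembly as mm10. Each was identical to the genome, and 1 promoter per gene was used, the one nearest to the start of the gene's most abundant transcript in mESCs. It lay within 50 bp of that start at 39 of the 66 genes. Others were farther away, with an offset of -867 bp at Rpl15 and 3553 bp at Rps24. The other 20 included Rpl17, Rpl21, Rpl23a, Rpl29, Rpl3, Rpl30, Rpl32, Rpl36, Rpl7, Rpl8, Rplp1, Rps14, Rps20, Rps27a and Rps29. The sequences of the 5 genes with the longest run of C and T letters over the annotated start are printed first. The choice of genes did not use this feature. The run may include letters before the start, which a TOP, as part of the mRNA, does not. Each covers 60 bases before the start and 30 from the start on, 5′ to 3′ on the strand of the gene, and the capitals mark the run that covers the start base.

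Rpl7a, chr2:26910747-26910836, + strand: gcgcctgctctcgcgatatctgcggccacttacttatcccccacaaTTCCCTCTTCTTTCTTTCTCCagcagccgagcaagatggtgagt
Rpl27a, chr7:109519135-109519224, + strand: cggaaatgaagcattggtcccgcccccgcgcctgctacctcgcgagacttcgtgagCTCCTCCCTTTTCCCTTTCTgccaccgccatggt
Rpl34, chr3:130730308-130730397, - strand: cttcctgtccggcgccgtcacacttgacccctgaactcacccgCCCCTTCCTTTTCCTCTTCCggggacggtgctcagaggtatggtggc
Rpl35, chr2:39005102-39005191, - strand: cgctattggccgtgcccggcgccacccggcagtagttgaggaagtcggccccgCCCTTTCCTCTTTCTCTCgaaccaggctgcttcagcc
Rpl15, chr14:18270957-18271046, - strand: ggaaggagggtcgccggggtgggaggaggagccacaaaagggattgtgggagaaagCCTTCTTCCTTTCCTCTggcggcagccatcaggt

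The run was 21 letters long in Rpl7a, 20 in Rpl27a and Rpl34, 18 in Rpl35 and 17 in Rpl15. Counted from the start base on, it held 7 letters in Rpl7a, 16 in Rpl27a, 3 in Rpl34, 11 in Rpl35 and 13 in Rpl15. A run of at least 8 letters covered the start in 16 of the 66 promoters (24.2%), against 3.76% of the promoters of 9621 other protein-coding genes with a TPM of at least 1 in either line and 3.86% of all 32851 promoters of the table. Counted from the start base on, a run of at least 5 letters was present in 16 promoters (24.2%). The shares were 3.94% for the other expressed genes and 4.44% for the table. In 36 of the 66 promoters the annotated start base was A or G, so that no run covered it. Searched within 30 bases of the start, a run of at least 8 letters was present in 34 promoters (51.5%), against 21.3% of those of the other expressed genes and 23.1% of the table. Rpl11, whose protein binds the 5S ribosomal RNA, was one of those, with a start base of A and a run of 17 letters nearby. Among genes with 100 TPM or more in mESCs, 5.08% of 649 other promoters had a run of at least 8 letters over the start.

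Fixed motifs were searched on both strands in the 100 bases before the start. None of these motifs contains another. CCGGAAG, a core of the sites bound by ETS factors, was present in 13 of the 66 promoters (19.7%), against 10.1% of the other expressed genes and 4.52% of the table. AANATGG, a form of the YY1 site, was present in 6 (9.09%), against 3.45% and 4.37%. The letters TATAAA were found in 2 (3.03%), against 2.35% and 5.56%, and these were Rpl22l1 and Rpl39. The GC box of Sp1, GGGCGG, was found in 21 (31.8%), which was less often than the 49.0% of other expressed genes and more often than the 24.7% of the table. A match gives the letters only and not the binding of any factor.

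A second set of sequences is printed because these genes stood apart in the RNA tables or peak lists. Within the printed bases, Rps27 and its retrogene Rps27rt shared a stretch of 29 bases. It ran to the last printed base of Rps27, so its full length was not measured. The stretch began at the start base in Rps27rt and 1 base past it in Rps27. No base before the start was part of it. Rps27rt was listed at 0 in both lines, but 91.6% of its 31-base words occur in another of the ribosomal protein genes, and how shared reads were divided was not tested. Rpl10l and Rpl39l, paralogs known for expression in the testis, had no pyrimidine letter at the annotated start.

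Rps27, chr3:90213619-90213708, - strand: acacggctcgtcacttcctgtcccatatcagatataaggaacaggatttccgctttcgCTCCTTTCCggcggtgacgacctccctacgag
Rps27rt, chr9:114982710-114982799, - strand: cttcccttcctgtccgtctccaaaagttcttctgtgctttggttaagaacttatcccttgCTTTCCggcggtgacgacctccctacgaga
Rpl10l, chr12:66284372-66284461, - strand: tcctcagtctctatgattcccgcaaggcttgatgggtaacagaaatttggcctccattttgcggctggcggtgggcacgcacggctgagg
Rpl39l, chr16:10170168-10170257, + strand: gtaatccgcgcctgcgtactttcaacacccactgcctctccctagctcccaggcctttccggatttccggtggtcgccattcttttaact

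The ribosomal protein genes made up 13.9% of all TPM in mESCs and 14.0% in NIH3T3 cells when each gene was given by its most abundant transcript, the representative transcript used for gene levels throughout. Summed over all transcripts the shares were 18.5% and 18.6%. By reads, they took 6.13% of the 26400407 estimated reads in mESCs (95% interval, exact Clopper-Pearson, 6.13 to 6.14) and 6.11% of the 28849497 in NIH3T3 cells (6.10 to 6.12); these intervals cover counting error only. Large-subunit genes summed to 73461 TPM in mESCs and 74605 TPM in NIH3T3 cells, and small-subunit genes to 65852 and 65653 TPM. The sums of both subunits thus differed little between the libraries.

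The median gene had 1568 TPM in mESCs (quartiles 1058 and 2186) and 1542 TPM in NIH3T3 cells (quartiles 877 and 2162). Among the top 50 genes by TPM, mitochondrially encoded genes left out, 39 were ribosomal protein genes in mESCs and 34 in NIH3T3 cells. At least 1000 TPM was reached by 65 genes in mESCs and by 62 in NIH3T3 cells. Without the paralogs and other names, the lowest gene still had 155 TPM in mESCs and 128 TPM in NIH3T3 cells, and the upper quartile was 1.91 times the lower quartile in mESCs and 2.06 times in NIH3T3 cells.

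The highest levels in mESCs were those of Rps24 with 3972 TPM, Rpl41 with 3582, Rpl13 with 3448, Rps29 with 3365 and Rplp1 with 3353. Rpl41 encodes the smallest ribosomal protein. In NIH3T3 cells Rpl41 led with 6277 TPM, followed by Rps12 with 4307, Rplp1 with 3654, Rps3a1 with 3378 and Rpl7 with 3295. Rpl41 and Rplp1 were thus among the 5 highest in both libraries, while Rps24 had 3036 TPM and rank 24 among all protein-coding genes in NIH3T3 cells. The lowest were paralogs and other names: Rps27rt was listed at 0 in both lines, and Rpl3l, the striated-muscle paralog of Rpl3, had 0.691 TPM (16 reads) in mESCs and 0.104 TPM (2 reads) in NIH3T3 cells. Rps19bp1 had 46.8 and 56.2 TPM, and Rpl7l1, a paralog of Rpl7, had 74.3 and 132 TPM in mESCs and NIH3T3 cells. Among the 77 others, the lowest in NIH3T3 cells was Rps7, with 128 TPM there and 166 TPM in mESCs. Transcripts of other genes that share sequence with Rps7 held 2613 TPM in mESCs and 2292 TPM in NIH3T3 cells. The low level of Rps7 is therefore uncertain, and how shared reads were divided was not tested. Levels of the 86 genes in the 2 lines had a Spearman rho of 0.840 across genes, beside 0.633 over the 12392 genes with a TPM of at least 1 in either line; genes of 1 library share its depth and are not independent replicates.

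**Figure D1:**
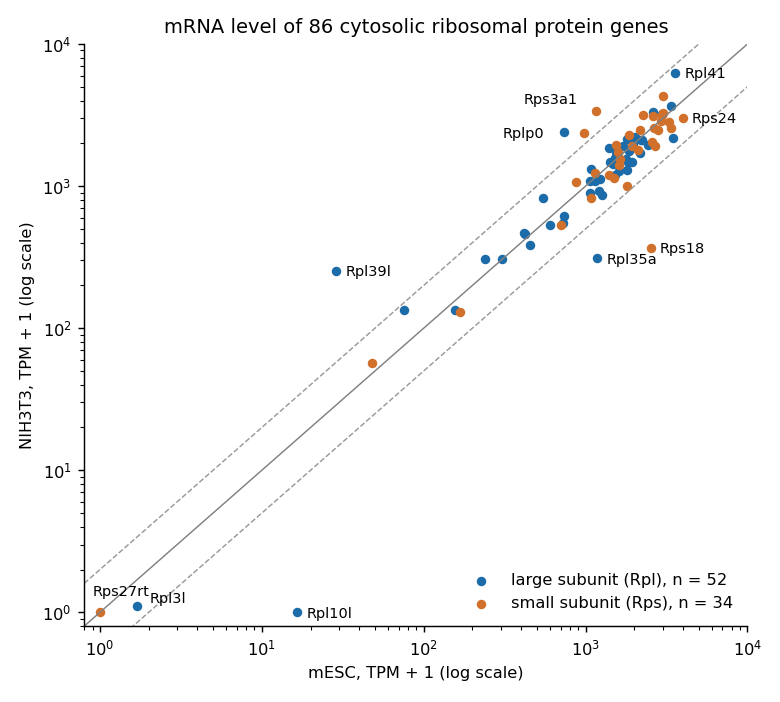
TPM + 1 of the 86 cytosolic ribosomal protein genes in mESCs (x axis) and NIH3T3 cells (y axis), both on log scales, with 1 point per gene and 1 library per line. The solid line marks equal levels and the dashed lines a 2-fold difference; Rpl39l, Rplp0 and Rps3a1 lie above the upper line and Rpl10l, Rps18 and Rpl35a below the lower line.

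Between the libraries most ribosomal protein genes differed little. The log2 ratio of NIH3T3 over mESC, on the log2(TPM + 1) scale, had a median of -0.05 over the 84 genes that reached 1 TPM in either line, with quartiles of -0.32 and 0.18, and 70 of the 84 lay within 0.5 of 0. Of all 12392 genes tested, 4074 lay within 0.5 of 0. The median over all genes tested was -0.13, so that relative to it the ribosomal protein genes lay at 0.08, on the other side of 0. By the 2-fold rule, 4 genes were higher in NIH3T3 cells and 3 were lower. Among all genes tested, 20.0% were higher and 23.8% were lower by this rule. Large-subunit genes had a median of -0.06 over 51 genes and small-subunit genes a median of -0.05 over 33.

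Higher in the NIH3T3 library were, among others, Rpl39l, with 27.8 TPM in mESCs and 253 TPM in NIH3T3 cells (305 and 2596 reads, 8.83-fold), and Rplp0, the base of the ribosomal P stalk that recruits translation factors, with 731 and 2387 TPM (3.26-fold). Rps3a1, which lies on the small subunit near the mRNA exit, had 1159 and 3378 TPM (2.91-fold). Lower were Rps18, a protein of the head of the small subunit, with 2530 TPM in mESCs and 366 TPM in NIH3T3 cells (6.90-fold), and Rpl35a with 1182 and 309 TPM (3.82-fold). Rpl10l had 15.5 TPM (236 reads) in mESCs and 0 reads in NIH3T3 cells, which made it at least 91.9-fold lower there when the NIH3T3 level is set to that of 3 reads, 0.169 TPM. The next largest differences stayed under 2-fold: Rps14 with 1809 and 1005 TPM and Rpl13 with 3448 and 2163 TPM on the lower side, and Rpl7l1 (1.77-fold) and Rpl41 (1.75-fold) on the higher side.

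Ribosomal protein genes have many processed pseudogenes whose sequence is close to that of the mRNA, and reads that fit both are divided between them by the quantification. Transcripts of other genes that shared at least 10% of their 31-base words with a ribosomal protein gene numbered 1149 and came from 1126 genes, 991 of which were annotated pseudogenes; 81 of the 86 genes had such a relative, and Rpl7a had the most pseudogene relatives (92). This comparison was added after the differences had been seen. Rps3a1 had relatives with 2762 TPM in mESCs and 11.3 TPM in NIH3T3 cells, mainly the pseudogenes Rps3a2 with 1768 and 0.875 TPM and Rps3a3 with 989 and 2.49 TPM. The log2 ratio of Rps3a1 was 1.54 for the representative transcript and for all its transcripts, and -0.21 with the relatives added to these. The gene was thus higher in the library in which its pseudogenes were lower.

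Rps18 showed the opposite picture. Its relatives had 6.79 TPM in mESCs and 4151 TPM in NIH3T3 cells, almost all of it in Gm10260 with 1.37 and 2030 TPM and Gm11361 with 0 and 2049 TPM, both annotated as protein-coding. The log2 ratio was -2.79 for the representative transcript, -3.14 over all transcripts and 0.10 with the relatives added to these. For Rpl35a, relatives with 4.86 TPM in mESCs and 1117 TPM in NIH3T3 cells, 5 of which held 223 TPM each in NIH3T3 cells, brought the ratio from -2.03 over all transcripts (-1.93 for the representative) to -0.39. For Rplp0, relatives with 1483 and 191 TPM, led by Gm8730 with 1176 and 67.1 TPM, brought it from 2.44 over all transcripts (1.71 for the representative) to 0.95. With relatives added, Rpl39l remained the one gene higher by 2-fold (log2 ratio 3.02) and Rpl10l the one gene lower. Of the 84 genes, 76 then lay within 0.5 of 0. Relatives were not sought for other genes, so this count has no background. The levels of Rplp0, Rps3a1, Rps18 and Rpl35a apart from their relatives are therefore uncertain, and whether shared reads were divided differently in the libraries was not tested.

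**Figure D2:**
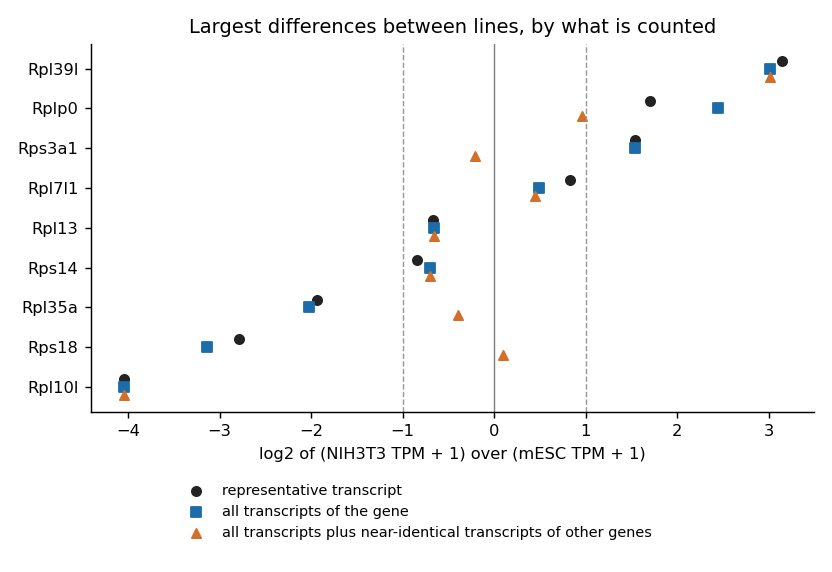
Log2 ratio of NIH3T3 over mESC (x axis, on the TPM + 1 scale) for 9 of the 10 ribosomal protein genes with the largest differences (y axis), for the representative transcript, for all transcripts of the gene and with near-identical transcripts of other genes added; 1 library per line, dashed lines at a 2-fold difference. With the added transcripts Rps18 moves from -3.14 over all transcripts to 0.10 and Rps3a1 from 1.54 to -0.21, while Rpl39l stays above 3; the position of Rpl10l, listed at 0 in NIH3T3 cells, depends on the pseudocount of 1.

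Most of the TPM of most genes was in transcripts annotated as protein-coding, with a median over genes of 96.6% in mESCs and 95.2% in NIH3T3 cells. The representative transcript held a median of 81.7% of the TPM of its gene in mESCs and 76.9% in NIH3T3 cells. In each line 17 of the 86 genes had a representative of another class, a share not compared with that of other genes: in mESCs almost all the TPM of Rps26 (99.3%) and Rps20 (98.6%) was in transcripts annotated as retained introns, 99.9% of that of Rpl35 and 99.3% of that of Rpl37 in processed transcripts, and 60.4% of that of Rpsa in transcripts annotated for nonsense-mediated decay. Over all 86 genes, protein-coding transcripts held 73.1% of the TPM in mESCs and 73.6% in NIH3T3 cells, retained introns 12.2% and 13.0%, processed transcripts 10.6% and 9.79%, and decay targets 4.11% and 3.67%. These shares were close between the libraries.

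The representative transcript differed between the lines for 7 genes, among them Rpl13a, Rpl15, Rpl35a, Rpl7l1 and Rplp0. This count was not compared with that of other genes. For Rplp0, the mESC leader had 731 TPM in mESCs and 1685 TPM in NIH3T3 cells, and the NIH3T3 leader was listed at 0 in mESCs and stood at 2387 TPM in NIH3T3 cells. For Rpl35a, the mESC leader had 1182 TPM in mESCs and was listed at 0 in NIH3T3 cells, and the other had 450 and 309 TPM. Rplp0 and Rpl35a were thus among both the genes past 2-fold and those whose leading transcript changed. Over all transcripts, without relatives, their log2 ratios were 2.44 and -2.03.

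By the representative transcript, the P stalk gene Rplp1 had 3353 TPM in mESCs and 3654 TPM in NIH3T3 cells, Rplp2 had 2164 and 1708 TPM, and Rplp0 had 731 and 2387 TPM. The representative held 57.2% of the TPM of Rplp0 in NIH3T3 cells, and over all transcripts the gene had 767 and 4170 TPM. Ribosomal proteins under other names differed by less than 2-fold: Fau, which encodes a ubiquitin-like protein fused to a small-subunit protein, had 1072 and 1530 TPM, and Rack1, a scaffold on the small subunit, had 1097 and 1127 TPM. Of 20 translation factors and other genes with TOP mRNAs, Vim, the intermediate filament of mesenchymal cells, was higher in NIH3T3 cells (162 and 1829 TPM) and Eif3k was lower (476 and 234 TPM, log2 ratio -1.02, but -0.997 and under 2-fold over all transcripts). Eef1a1, which delivers aminoacyl-tRNA, stood at 10120 and 8791 TPM, and Eef2, which translocates the ribosome, at 1979 and 2475 TPM.

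Genes that build ribosomes had lower median ratios than the ribosomal protein genes, but the share called lower by 2-fold was close to or under the 23.8% of all genes. Of 29 ribosome assembly factors, 5 were lower by 2-fold or more and 0 were higher, with a median log2 ratio of -0.40: Rrp9 (81.7 and 17.9 TPM), Gnl3 (180 and 60.8 TPM), Utp4 (114 and 46.4 TPM), Wdr12 (47.1 and 21.6 TPM) and Dkc1 (171 and 80.5 TPM). Of the 13 RNA polymerase I genes found among 16 listed, 3 were lower and 0 higher, a share like that of all genes, with a median of -0.51: Rrn3 (129 and 55.6 TPM), Taf1c (11.3 and 4.73 TPM) and Polr1c (87.0 and 41.5 TPM). Summed over all transcripts, 4 assembly factors were lower, with Wdr12 and Dkc1 no longer called and Nat10 called instead, and 2 RNA polymerase I genes, with Polr1c no longer called. Of 78 mitochondrial ribosomal protein genes, 5 were higher and 8 lower, with a median of -0.17, close to that of all genes tested. The higher ones were Mrps33, Mrps11, Mrpl54, Mrps6 and Mrpl14, and the lower ones Mrpl15, Mrps2, Mrpl24, Mrpl1, Mrps12, Mrpl23, Mrps31 and Mrpl45. In bulk samples, fewer cells that express a gene and less RNA per cell cannot be told apart.

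A peak was assigned to a gene when it covered at least 1 bp of a window reaching from 1 kb before the gene to 5 kb past its end. A Ctr9 peak was found at 81 of the 86 ribosomal protein genes in mESCs, where 44.1% of all protein-coding genes and 91.6% of the top 25% of expressed genes had one, and at 80 in NIH3T3 cells, where these shares were 25.8% and 65.6%. H3K27ac peaks were found at 82 genes in mESCs (43.1% of all genes, 89.7% of the top 25%) and at 84 in NIH3T3 cells (54.7% and 97.2%). In mESCs, NELFA peaks were found at 73 genes (10.4% and 29.3%), RNAPII Ser5p peaks at 81 (12.8% and 36.3%) and RNAPII Ser2p peaks at 77 (6.99% and 21.3%). The short NELFA, Ser5p and Ser2p lists held 1980, 4490 and 1675 peaks, so that 4.34%, 5.84% and 8.30% of each list lay in the windows of these genes, which together span 0.888 Mb. All 77 genes without paralogs and other names had a Ctr9 and an H3K27ac peak in both lines and a Ser5p peak in mESCs.

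For Ctr9, NELFA, Ser5p and Ser2p, genes of like expression came closer to the ribosomal protein genes than the backgrounds above. Of 88 other nuclear genes with at least 500 TPM in mESCs, 94.3% had a Ctr9 peak, 89.8% an H3K27ac peak, 68.2% a NELFA peak, 86.4% a Ser5p peak and 72.7% a Ser2p peak; of the 73 ribosomal protein genes at that level the shares were 100%, 100%, 90.4%, 100% and 94.5%. In NIH3T3 cells the 88 other genes at that level had a Ctr9 peak in 85.2% and an H3K27ac peak in 88.6%, and the 71 ribosomal protein genes in 98.6% and 100%. The other genes were longer (median 6182 bp in mESCs and 7152 bp in NIH3T3 cells). Peaks of all 5 mESC lists were found at 70 ribosomal protein genes and at 2.52% of the 21832 other protein-coding genes, and 13.0% of the 539 genes with peaks of all 7 lists were ribosomal protein genes.

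**Figure D3:**
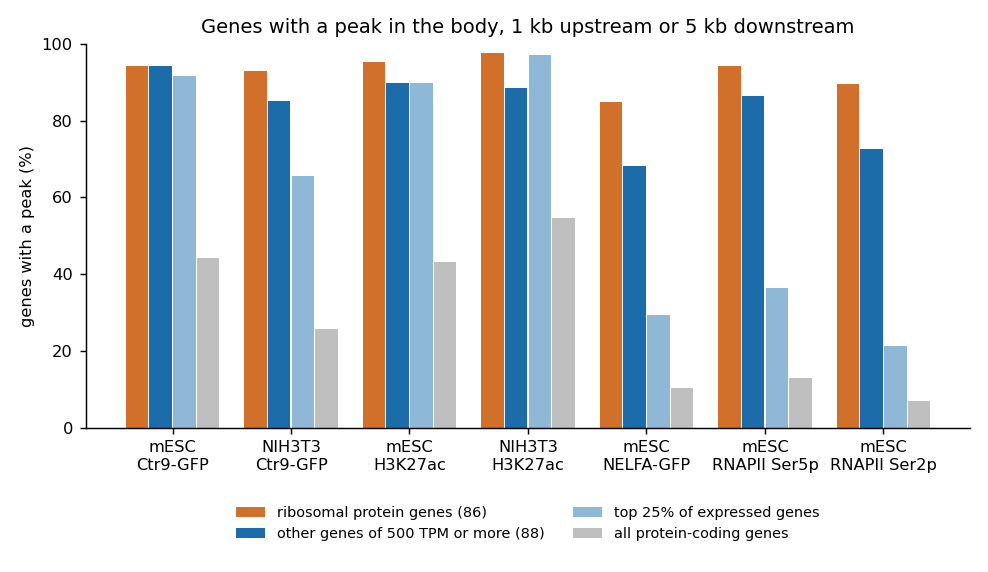
Share of genes (y axis, percent) with a peak of each of the 7 lists (x axis) for the 86 ribosomal protein genes, for 88 other genes with at least 500 TPM in the same line, for the top 25% of expressed genes and for all protein-coding genes; each list comes from 1 library. The ribosomal protein genes stand at 84.9% to 97.7%, and the gap to the top 25% is wide for NELFA (29.3%), Ser5p (36.3%) and Ser2p (21.3%) and narrow for mESC Ctr9 (91.6%).

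The genes without peaks were mostly paralogs. Rpl10l and Rps19bp1 had no peak of any list. Rps27rt and Rpl39l each had a single one, an NIH3T3 H3K27ac peak with a fold enrichment over the local background of 5.43 and 19.1. Rpl3l, whose window overlaps that of Rps2, had H3K27ac peaks of 2.63 in mESCs and 7.49 in NIH3T3 cells. In NIH3T3 cells the summit of the Rps27rt peak lay inside Osbpl10 and that of the Rpl3l peak inside Msrb1. With a window of 1 kb on each side of the gene, Rps27rt had no peak. The members with the highest TPM and no Ctr9 peak were Rps19bp1 (46.8 TPM) in mESCs and Rps27l (528 TPM), a paralog of Rps27, in NIH3T3 cells, where Rpl39l (253 TPM) came next. Rps27l had a Ctr9 peak of 6.74 in mESCs. The other paralogs had peaks of more lists. Rpl7l1 had peaks of all 7 lists, with Ctr9 at 19.4 in mESCs and 5.36 in NIH3T3 cells. Rpl22l1, the paralog of Rpl22, and Rpl36al, that of Rpl36a, lacked 1 list each. The NIH3T3 Ctr9 and NELFA summits of Rpl36al lay in Gm49383 and Mgat2, and the NIH3T3 H3K27ac summit of Rpl7l1 in 2310039H08Rik.

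A NELFA peak was missing at 13 genes, 7 of which were outside the paralogs: Rpl11, Rpl22, Rpl30, Rpl31, Rpl39, Rps16 and Rps25. They were expressed at 424 TPM (Rpl30) to 2178 TPM (Rps16) in mESCs, and all 7 had Ctr9 peaks there, from 9.59 at Rps25 to 19.4 at Rps16. Outside the paralogs, a Ser2p peak was missing at Rpl22 and Rps13. Rpl22 also had the weakest Ser5p peak, 3.15.

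Strong Ctr9 peaks were a common feature of the group. The strongest Ctr9 peak per gene had a median fold enrichment of 18.4 in mESCs (quartiles 13.7 and 21.3), against 5.58 for other protein-coding genes with a peak, and each of the 81 genes had a peak in the top 10% of the list. In NIH3T3 cells the median was 11.4 (quartiles 8.14 and 15.9) against 5.17, with 75 of 80 in the top 10%. Other genes with at least 500 TPM had medians of 14.0 in mESCs and 10.1 in NIH3T3 cells. The strongest in mESCs were Rpl3, which reaches the peptidyl transferase centre, with 34.9, Rpsa, a small-subunit protein also known as the laminin receptor, with 33.3, Rpl4 with 32.7, Rps12 with 32.7 and Rpl19 with 27.3. In NIH3T3 cells they were Rpl3 with 40.9, Rps12 with 28.0, Rplp1 with 23.8, Rpsa with 23.6 and Rps2 with 22.8. Rpl3, Rps12 and Rpsa were thus among the 5 strongest in both lines.

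Of the 80 genes with a Ctr9 peak in both lines, 67 had the higher fold enrichment in mESCs and 13 in NIH3T3 cells, Rpl3, Rplp1 and Rplp2 among the latter. Fold enrichment depends on the depth and the background of each library, and the depth is unknown here, so a difference in level between the lines cannot be told apart from one between the libraries. Spearman rho of the fold enrichment in the lines was 0.301 over the 80 genes. The places were shared: the strongest peaks of the 2 lines overlapped at 75 of the 80 genes, and a median of 87.4% of the mESC peak bases per gene also lay in an NIH3T3 peak. For genes whose TPM differed most, Ctr9 fold enrichment was 26.8 in mESCs and 8.02 in NIH3T3 cells at Rps18, 24.0 and 15.7 at Rpl35a, 20.9 and 12.5 at Rps3a1, and 19.8 and 10.4 at Rplp0. All 4 were bound in both lines.

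**Figure D4:**
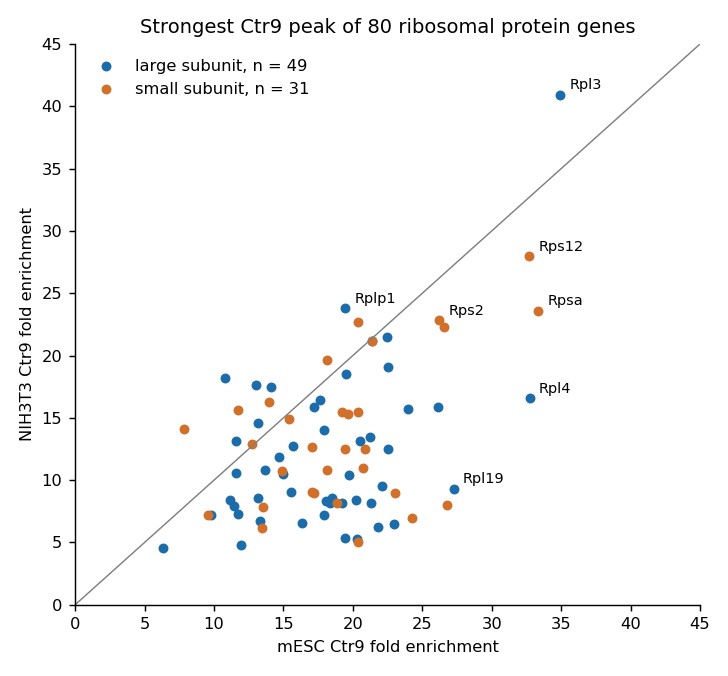
Fold enrichment of the strongest Ctr9 peak in mESCs (x axis) and NIH3T3 cells (y axis) at the 80 ribosomal protein genes with a peak in both lines, 1 point per gene and 1 library per line, with the line of equal values. Of the points, 67 lie below the line; Rpl3 stands apart at 34.9 and 40.9.

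The mESC lists of H3K27ac, NELFA, Ser5p and Ser2p had lower values than mESC Ctr9, and NIH3T3 H3K27ac had higher ones than NIH3T3 Ctr9. Taking the strongest peak of each gene, the median fold enrichment was 6.90 for mESC H3K27ac (5.41 at other genes with a peak), 22.8 for NIH3T3 H3K27ac (15.0), 6.14 for NELFA (5.05), 9.24 for Ser5p (5.02) and 7.29 for Ser2p (5.27). The strongest mESC H3K27ac peaks were at Rpl22l1 (11.1), Rpl15 (10.6), Rpl17 (9.78), Rpl27 (9.64) and Rps20 (9.57), and the strongest in NIH3T3 cells at Rpl19 (44.2), Rpl3 (37.9), Rpsa (37.6), Rpl35a (37.3) and Rpl32 (35.6). NELFA peaks were strongest at Rpl41 (14.8), Rplp0 (13.8), Rps2 (13.7), Rps9 (13.6) and Rpl3 (11.1). Ser5p peaks were strongest at Rpl3 (23.3), Rpl41 (22.7), Rpl13a (17.7) and Rps9 (17.5), and Ser2p peaks at Rpl3 (23.4), Rpl41 (20.9), Rpl35a (16.2), Rpl4 (15.5) and Rpl13a (14.9). Rpl3 was the one gene among the 5 strongest of the Ctr9 lists of both lines and of the NELFA, Ser5p and Ser2p lists.

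The P stalk genes carried peaks of every list. Ctr9 fold enrichment in mESCs and NIH3T3 cells was 19.8 and 10.4 at Rplp0, 19.4 and 23.8 at Rplp1 and 14.1 and 17.5 at Rplp2. In mESCs the NELFA peak was 13.8 at Rplp0, 5.59 at Rplp1 and 3.64 at Rplp2. Of the ribosomal proteins under other names, Fau had Ctr9 at 12.0 and 6.33 and no NELFA peak, and Rack1 had peaks of all 7 lists. Eef1a1 had strong Ctr9 peaks (30.0 and 39.4), whereas Eef2 had no peak of any list at 1979 TPM. A Ctr9 peak was found at 73 of the 78 mitochondrial ribosomal protein genes in mESCs and at 34 in NIH3T3 cells, with NELFA at 18 and Ser2p at 10.

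Among the ribosomal protein genes, fold enrichment followed the mRNA level little or not at all by rank. Spearman rho with TPM was 0.04 for Ctr9 in mESCs (81 genes), 0.17 for Ctr9 in NIH3T3 cells (80), 0.17 for NELFA (73), 0.12 for Ser5p (81), 0.07 for Ser2p (77), and -0.02 for H3K27ac in mESCs (82) and -0.03 in NIH3T3 cells (84). Between marks in mESCs, Ctr9 had a rho of 0.51 with Ser5p and 0.53 with Ser2p, but 0.06 with NELFA and 0.10 with H3K27ac; NELFA had a rho of 0.47 with Ser5p. These values describe genes within single libraries, and the range of TPM over the group is narrow.

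Most genes shared an order of the marks along their length. Distances were measured from the annotated gene start to the summit of the strongest peak, in the direction of transcription. The median distance was 95 bp for NELFA, 308 bp for mESC H3K27ac, 272 bp for NIH3T3 H3K27ac, 1167 bp for Ser5p, 3669 bp for NIH3T3 Ctr9, 4418 bp for mESC Ctr9 and 4416 bp for Ser2p. NELFA summits lay within 250 bp of the start at 59 of 73 genes, and Ctr9 and Ser2p summits at 0 genes. With the summits of all peaks counted, the genes were 0 for mESC Ctr9, 3 for NIH3T3 Ctr9 and 1 for Ser2p. Each listed peak has 1 summit, so a lesser maximum near the start inside a broad Ctr9 peak would not be counted. The strongest summit lay past the annotated gene end at 74 of 81 genes for mESC Ctr9, at 54 of 80 for NIH3T3 Ctr9 and at 71 of 77 for Ser2p, with medians of 1055, 617 and 991 bp past the end.

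Ser5p was divided between both ends. Its strongest summit lay within 1 kb of the start at 40 genes and past the end at 35, and at 49 of the 81 genes Ser5p summits were found both within 250 bp of the start and past the end. H3K27ac summits lay within 1 kb of the start at 73 of 82 genes in mESCs and at 72 of 84 in NIH3T3 cells, and those of the 2 lines lay within 200 bp of each other at 66 of 82 genes. The annotated start can belong to a rarely used upstream transcript: Rpl3 had its NELFA summit 8525 bp and its NIH3T3 H3K27ac summit 8711 bp inside the annotated gene.

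Within a gene, the mESC Ctr9 summit came after the NELFA summit at 70 of 73 genes, with a median offset of 4109 bp over the 73, and after the Ser5p summit at 64 of 81 genes, with a median offset of 2113 bp over the 81. Between Ctr9 and Ser2p the median offset was -26 bp, and the 2 summits lay within 200 bp of each other at 41 of 77 genes. The Ser5p summit came after that of NELFA at 59 of 73 genes, with a median offset of 107 bp. The Ctr9 summit was farther downstream in mESCs than in NIH3T3 cells at 59 of 80 genes, with a median offset of 399 bp over the 80. Other genes with at least 500 TPM and a length under 6 kb had the same layout in mESCs, with the strongest summit past the end for 92.1% of 38 genes with a Ctr9 peak and 100% of 30 with a Ser2p peak; in NIH3T3 cells the share for Ctr9 was 35.7% of 28 such genes, against 67.5% of the 80 ribosomal protein genes.

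**Figure D5:**
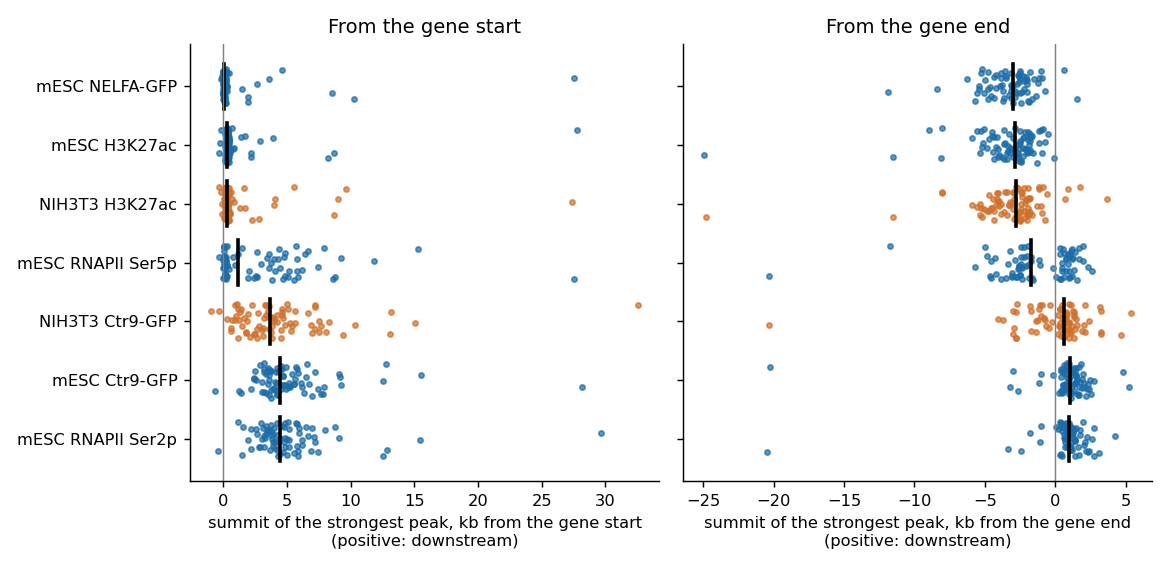
Summit of the strongest peak at each ribosomal protein gene with a peak, in kb from the annotated gene start (left panel, x axis) and from the gene end (right panel, x axis), for the 7 lists (y axis); points are genes, jittered vertically, with mESC lists in blue and NIH3T3 lists in orange, and bars are medians. NELFA and H3K27ac summits gather at the start, Ser5p summits at both ends, and Ctr9 and Ser2p summits past the gene end, with medians of 1055 bp for mESC Ctr9 and 991 bp for Ser2p.

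Ctr9 peaks were broad. The strongest Ctr9 peak had a median width of 5805 bp in mESCs and 5551 bp in NIH3T3 cells, against median widths of 391 and 400 bp over all peaks of these lists. Strongest Ctr9 peaks were also broad at other genes with at least 500 TPM and a length under 6 kb. Their median widths were 4381 bp in mESCs and 4315 bp in NIH3T3 cells. Ctr9 peaks covered a median of 93.0% of the gene body in mESCs and 95.5% in NIH3T3 cells, over all 86 genes, and the whole body of 9 and 22 genes. The farthest Ctr9 peak edge reached a median of 3552 bp past the gene end in mESCs and 3683 bp in NIH3T3 cells. Ser5p peaks covered a median of 37.5% of the body and NELFA peaks 7.12%. Ser2p peaks covered none of the body at 56 of the 86 genes, 9 of which had no Ser2p peak, and reached a median of 2006 bp past the end. For comparison, Ctr9 peaks covered a median of 80.1% of the body of the other genes with at least 500 TPM and a length under 6 kb in mESCs and 80.8% in NIH3T3 cells.

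The windows of 54 of the 86 genes met another protein-coding gene, so some summits outside a gene lay inside a neighbour. This was the case for 19 genes in the mESC Ctr9 list, 15 in the NIH3T3 Ctr9 list, 9 in the Ser5p list and 19 in the Ser2p list. It was also the case for 3 genes in the NIH3T3 H3K27ac list, 2 in the NELFA list and 0 in the mESC H3K27ac list. The genes included Rpl36, whose Ctr9 summits in both lines lay in Lonp1, and Rpl7a, whose Ctr9 summits lay in Surf1. Which of the neighbours gave such a summit was not tested.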

How the data were processed

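RNA-seq was quantified by the authors with kallisto 0.46.1 on GENCODE M19 transcripts, and the deposited tables hold an estimated count and a TPM for each transcript. The peak lists were called by the authors with MACS2 2.2.6, 1 library at a time, at a q threshold of 0.01, after alignment to mm10 with Bowtie2 2.3.5.1 and removal of reads in the ENCODE blacklist; tool versions are from the submitters' processing notes. For each deposited peak the authors gave a fold enrichment over the local background, which is a ratio, a −log10 p and a −log10 q value, a summit and a score equal to the −log10 q value times 10. The RNA libraries held 26400407 (mESC) and 28849497 (NIH3T3) estimated reads, and the depth of the ChIP-seq libraries is unknown. The 3 input libraries were not analysed here.

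From these files, the level of a gene was taken from whichever of its transcripts had most TPM in that library, and its position came from the GENCODE M21 annotation of mm10. Ratios were taken on the log2(TPM + 1) scale over protein-coding genes with a TPM of at least 1 in either line, which understates the change of low genes, and 2-fold or more counted as a difference. With 1 library per group no test was made. Relatives were transcripts of other genes that shared at least 10% of their 31-base words with a ribosomal protein gene, looked up in the GENCODE M21 transcripts, which held 137654 of the 137767 transcript IDs. Full values are given for the 5 highest and lowest genes by TPM, the 5 largest ratios in each direction, the 5 strongest peaks of each list, genes without Ctr9 or any peak, the P stalk, the paralogs, and a few genes and all 2-fold genes of the other lists; mitochondrial ones are only named. A few genes among these are not reported here. The members and lists were chosen with earlier results of these data known. The alternatives were sums over transcripts, other pseudocounts, folds, windows and q thresholds, all peaks in place of the strongest, and, chosen after seeing the data, the relatives and pyrimidine runs near the start. Scripts ran in Python 3.11.15 with pandas 2.3.3 and pysam 0.24.0 and were tested on simulated data. Intervals and the floor of 3 reads cover counting error only.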

Additional observations from a re-analysis of the deposited data

Results flagged for a closer look

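Genes with -ps in their symbol, a form used for pseudogenes, had signal in both RNA libraries. They are left out of the ribosomal protein genes and enter the values of these only where relatives were added. The 307 transcripts of these -ps genes summed to 19271 TPM in mESCs (1.93% of all TPM, 123638 estimated reads) and to 21999 TPM in NIH3T3 cells (2.2%, 176689 estimated reads). Of these transcripts, 24 and 29 exceeded 10 TPM. The highest in mESCs were Rpl34-ps1 with 2080 TPM, Rpl28-ps1 with 1908 TPM and Rps23-ps1 with 1692 TPM, and in NIH3T3 cells Rps2-ps13 with 2946 TPM, Rpl34-ps1 with 2191 TPM and Rpl28-ps1 with 2018 TPM. These levels are as high as those of the ribosomal protein genes themselves. Not all of the -ps transcripts were annotated as pseudogenes. That of Rps12-ps3, with 1191 TPM in mESCs and 929 TPM in NIH3T3 cells, was annotated as protein-coding. A transcript of Rps2-ps10, with 1153 and 1351 TPM, was annotated as a processed transcript. Whether the reads came from the -ps genes or from the parent genes was not tested.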

How the results depend on the processing

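Of 195 alternative values, 155 met the rule for no change, which differed between results. It was strict for the share of TPM, which had to stay inside its 95% counting interval, and no alternative did. The median log2 ratio had to stay within 0.1. For other results the rule was loose. Counts, fold enrichments and distances had to stay within a ratio of 1.5, and single genes only had to keep their call by the fold limit. The log2 ratio of Rpl10l thus met the rule although a pseudocount of 0.1 moved it from -4.05 to -7.29. Some alternatives, such as the fold of 1.5 for a log2 ratio, could not change the value. The share of TPM in mESCs and NIH3T3 cells was 18.54% and 18.64% over all transcripts and 14.65% and 15.08% with mitochondrial transcripts left out. It was 13.7% and 13.81% without the paralogs, and 22.49% and 23.24% with relatives added. With those added, 1 gene was higher and 1 lower, the median log2 ratio was 0.053, and the ratio of Rps18 was 0.10 and that of Rps3a1 -0.21, each with the opposite sign. Centred on the median of all genes the median ratio was 0.076, and at 1.5-fold 7 genes were higher and 5 lower. Counting every peak of a gene, a summit lay within 1 kb of the start at 24 (mESC Ctr9), 25 (NIH3T3 Ctr9), 67 (Ser5p) and 4 (Ser2p) genes and past the end at 15 (mESC H3K27ac), 22 (NIH3T3 H3K27ac), 10 (NELFA) and 78 (Ser5p) genes, and the median Ser5p distance from the start was 2789.5 bp. Measured from the representative transcript, the median distance was 195 bp for mESC H3K27ac, 164.5 bp for NIH3T3 H3K27ac, -5 bp for NELFA and 306 bp for Ser5p, and 0 Ser2p summits lay within 1 kb of the start. Over the whole stretch before the start, AANATGG was found in 13 promoters and GGGCGG in 32, and a run of 8 pyrimidines within 30 bases of the start in 34.

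No paired analysis was possible because each group had 1 library, and leaving out a replicate was not possible either. Differences between lines therefore compare libraries. TPM of genes with near-identical copies depends on how kallisto divided shared reads, positions depend on the annotated start, and a missing peak in the short NELFA and Ser2p lists says only that none was called.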
